A study of Rattus norvegicus with 2 samples.

Results

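The genes described here encode collagens, laminins, fibronectin, nidogens and integrins, the main proteins of the extracellular matrix and the cell-surface receptors that bind it. They were chosen by name alone, and 81 of the 25395 genes with values belonged to the set. Of these, 6 encode integrins of leukocytes, 18 encode the other integrin receptor subunits, and 57 were grouped as matrix genes. Most of the 57 encode proteins of the kind that fibroblasts, glia and vascular cells secrete. The 57 also include 4 transmembrane collagens and Itgbl1, an integrin beta-like gene. Perlecan (Hspg2), which also belongs to the set by name, was not analysed here.

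The values came from sympathetic neurons of rat stellate ganglia, the ganglia that supply most of the sympathetic innervation of the heart. There was 1 droplet library from normotensive Wistar rats and 1 from prehypertensive SHRs (spontaneously hypertensive rats), both from males of 5 to 6 weeks of age, and the number of rats pooled in each is not given in the sources used here. Each library was represented by 1 mean per gene over the cells that the authors assigned to the sympathetic neuron cluster. The paper describes 2 populations of sympathetic neurons, 1 of which also expressed neuropeptide Y. A mean per gene does not show in what proportion they entered each library. With 1 library per strain, no difference between the strains has an error or a test, and a fixed size, a 1.5-fold difference between the means, was used in place of a call.

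A level is given as the mean count of a gene per 10000 counts of a cell. The assay counts each molecule once, at its 3′ end, so the levels were not divided by transcript length. In the Wistar library the lowest level above 0 was 0.000140 per 10000, shared by 16 genes, and in the SHR library it was 0.000391, shared by 17 genes. If that value stands for 1 count in the deepest neuron, a level divided by it gives the most counts it can rest on. All 9 neuronal markers were above 0.1 per 10000 in both libraries, with a summed level of 183.5 in Wistar and 209.3 in SHR. Th, Dbh and Slc6a2 are among the markers that the paper used for sympathetic neurons, so these levels do not test the label of the cluster.

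Integrins are pairs of an alpha and a beta subunit. The alpha subunit largely sets the ligand, and Itgb1 is the common partner of the alpha subunits that bind collagen and laminin. Basement membranes, the thin sheets around ganglion cells, axons and vessels, are built of laminins and type IV collagen linked by nidogens, whereas the fibrillar collagens I, III and V make up the connective tissue that fibroblasts lay down. In a sympathetic ganglion, each neuron is wrapped by satellite glia and a basement membrane, and integrins on the neuron are known to bind laminin during axon growth.

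Type IV collagen genes lie in head-to-head pairs that are read outward from a shared promoter. Both pairs measured above 0 are shown here because the members of a pair differed in level, and because the pairs differed between the strains in different ways. RefSeq promoter sequences of the GRCr8 assembly matched 61 of the 81 genes by symbol. This is not the Rnor_6.0 build named in the submitters' processing notes, and the sequences are shown for orientation only. The starts of Col4a1 and Col4a2 were 76 bases apart, and the whole stretch between them is shown. The starts of Col4a3 and Col4a4 were 412 bases apart, and the 250 bases before each start are shown, so that 88 bases are common to both in opposite orientation. The 250 bases before the start of Itgb1, the most abundant gene of the set, are shown for comparison. Capitals mark the GC box (GGGCGG) on either strand. The CCAAT box (CCAAT) and the TATA box (TATAAA) were also searched on both strands, and no match overlapped another.
Col4a1-Col4a2 (chr16:84885521-84885596, plus strand): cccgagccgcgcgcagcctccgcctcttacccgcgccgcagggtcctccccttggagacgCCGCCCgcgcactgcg
Col4a3 (chr9:91323740-91323989, plus strand): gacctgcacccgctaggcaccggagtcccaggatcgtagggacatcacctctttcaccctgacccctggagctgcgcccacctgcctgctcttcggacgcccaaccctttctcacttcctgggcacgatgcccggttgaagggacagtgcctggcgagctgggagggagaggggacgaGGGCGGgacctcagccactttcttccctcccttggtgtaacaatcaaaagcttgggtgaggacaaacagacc
Col4a4 (chr9:91323578-91323827, minus strand): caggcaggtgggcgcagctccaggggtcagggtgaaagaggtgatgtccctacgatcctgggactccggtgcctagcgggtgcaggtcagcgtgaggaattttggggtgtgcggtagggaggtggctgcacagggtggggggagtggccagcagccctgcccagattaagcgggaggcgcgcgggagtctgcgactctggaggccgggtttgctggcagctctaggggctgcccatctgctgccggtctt
Itgb1 (chr19:73602027-73602276, plus strand): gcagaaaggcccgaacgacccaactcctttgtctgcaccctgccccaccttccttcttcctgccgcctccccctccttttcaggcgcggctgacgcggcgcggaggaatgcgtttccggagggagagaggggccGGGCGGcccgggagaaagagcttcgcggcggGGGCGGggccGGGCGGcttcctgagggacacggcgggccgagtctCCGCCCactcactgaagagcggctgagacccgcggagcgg

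The Col4a1-Col4a2 stretch held 1 GC box, as did the Col4a3 window. The Itgb1 window held 4 GC boxes and the Col4a4 window held 0. None of these sequences held a CCAAT or a TATA box in these letters. A GC box occurred in 30.5% of the 250-base windows before all 33469 promoters listed, and in 18.1% of the 76-base ones. The corresponding shares were 34.0% and 13.0% for the CCAAT box and 12.9% and 4.61% for the TATA box. The stretch between Col4a1 and Col4a2 was 78.9% G or C.

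Most of the 81 genes had low levels in the neurons. Of them, 9 averaged at least 0.1 per 10000 over both libraries, 29 averaged between 0.01 and 0.1, 30 were above 0 but under 0.01, and 13 were listed at 0 in both. Of all 25395 genes, 7621 averaged at least 0.1 with a level above 0 in both libraries. Above 0 in either library were 16389 of all genes and 68 of the 81 members. All members together summed to 8.93 per 10000 in Wistar and to 4.73 in SHR. The integrin receptors made up 4.18 of this in Wistar and 2.83 in SHR, the matrix genes 4.64 and 1.82, and the leukocyte integrins 0.115 and 0.0791. The summed level of the matrix genes was thus 2.55-fold lower in SHR, and that of the receptors 1.48-fold lower. The set includes genes listed at 0 in both libraries such as Itga8, Itga10, Itgb7, Col4a5, Col4a6, Col23a1, Col24a1 and Col27a1.

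Among the integrins, Itgb1 and the laminin-binding alpha subunits had the highest levels. Itgb1 was the most abundant member, at 2.58 per 10000 in Wistar and 1.83 in SHR, which ranked it 580 and 862 among all genes. Itga3, a laminin-binding alpha subunit, followed at 0.618 in Wistar and 0.461 in SHR. Itga6, the alpha subunit of the α6β1 and α6β4 laminin receptors, was measured at 0.396 in Wistar and 0.286 in SHR. The order Itgb1, Itga3, Itga6 was the same in both libraries, with a ratio of Itgb1 to Itga3 of 4.17 in Wistar and 3.97 in SHR and a ratio of Itga3 to Itga6 of 1.56 and 1.61.

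All 3 subunits had a lower mean in SHR, by 1.41-fold for Itgb1, 1.34-fold for Itga3 and 1.39-fold for Itga6, and none reached 1.5-fold. Over the 7621 genes that averaged at least 0.1 per 10000, the median SHR mean was 86.3% of the Wistar mean, a log2 ratio of -0.21. Relative to that median, the log2 ratio was -0.29 for Itgb1, -0.21 for Itga3 and -0.26 for Itga6. The 3 subunits therefore sat below that median and close to each other. The median depended on level, and over the 3198 genes that averaged at least 0.5 per 10000 it was -0.05. Itgb1 and Itga3 are among these genes, with log2 ratios of -0.50 and -0.42, so they lay further below the middle of that range.

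Itgb4, whose only partner is Itga6, differed more than these 3 subunits. It was 0.260 per 10000 in Wistar and 0.0721 in SHR, 3.61-fold lower in SHR, so that Itgb1 exceeded it by 9.91-fold in Wistar and 25.4-fold in SHR. It was the 1 gene of the 4 receptor genes past 0.1 per 10000 that was lower in SHR by at least 1.5-fold, and 0 were higher by that size. Its average passed 0.1 only through the Wistar library. Of all 7621 genes at this level, 26.5% were lower in SHR by at least 1.5-fold and 5.22% were higher, so the receptor count was near the background. With the median of all genes set to 0 these shares were 17.3% and 13.2%, and Itgb4 was still the 1 receptor lower by that size. Itgb4 is also a gene of Schwann cells. Summed over the 9 glial markers fixed for the check, the level was 8.34 per 10000 in Wistar and 2.83 in SHR, and 9 of the 9 were lower in SHR. Of all genes above 0 in either library, 68.1% had a lower mean in SHR. The part of glial RNA in the Itgb4 difference was not tested.

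The other receptors were under 0.1 per 10000. Itga1, a collagen-binding alpha subunit, was at 0.0884 in Wistar and 0.0770 in SHR. Itga7, another laminin-binding alpha subunit, was at 0.0822 in Wistar and 0.0541 in SHR, and Itgb8, a partner of Itgav that activates latent TGF-β, at 0.0573 and 0.0321. Itgav, the alpha subunit of the receptors for the Arg-Gly-Asp motif of fibronectin and vitronectin, went from 0.0726 in Wistar to 0.00862 in SHR, 8.42-fold lower, where its SHR level rests on at most 22 counts. The remaining Arg-Gly-Asp-binding subunits were lower still, with Itga2b at 0.0114 and 0.00243, Itga5 at 0.00103 in Wistar and 0 in SHR, and Itga8 at 0 in both. Itga4, a fibronectin and VCAM-1 receptor subunit, was at 0.00633 and 0.00212, and Itga9 was at 0 in Wistar and 0.000849 in SHR. In both libraries the summed level of the laminin-binding alpha subunits (1.10 in Wistar and 0.801 in SHR) was far above that of the collagen-binding ones (0.0890 and 0.0800) and the Arg-Gly-Asp-binding ones (0.0850 and 0.0110).

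**Figure D1:**
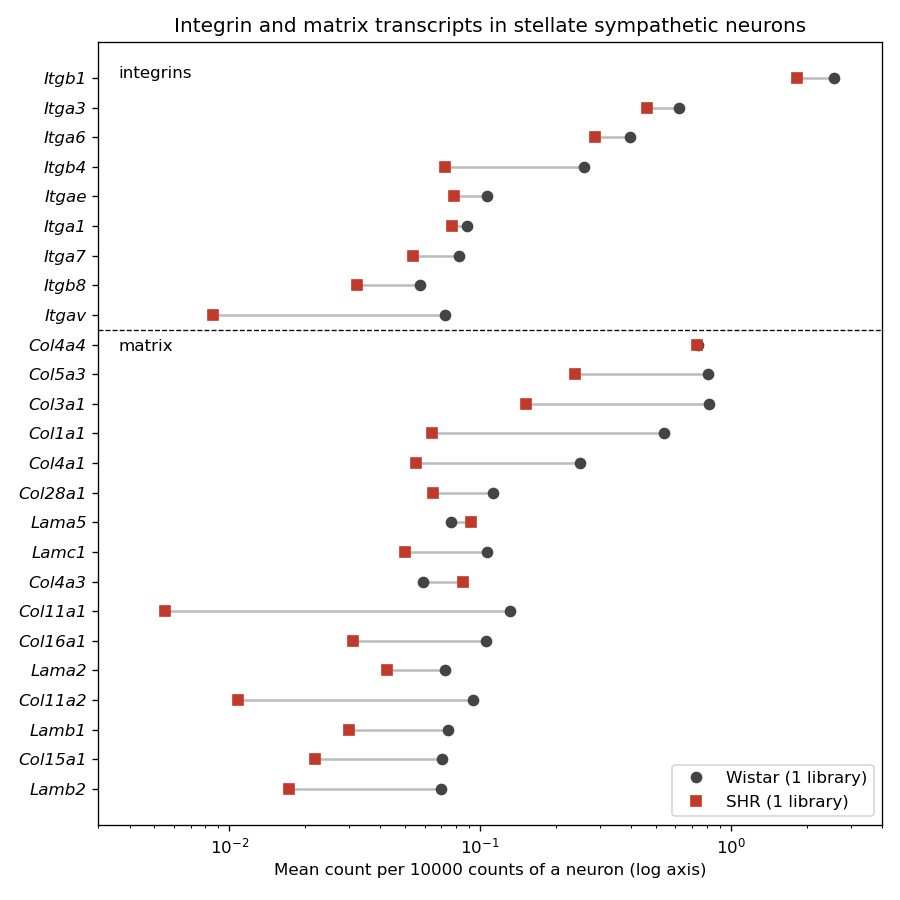
Mean count per 10000 on a log axis, with circles for Wistar and squares for SHR, for the 25 genes of the set that averaged at least 0.04 over both libraries, with 9 integrins above the dashed line and 16 matrix genes below it. Each point is 1 library with no error, and the 2 points lie close together for Itgb1, Itga3, Itga6 and Col4a4 and far apart for Col3a1, Col1a1 and Col11a1.

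Among the leukocyte integrins, Itgae, the alpha subunit of the E-cadherin receptor of intraepithelial T cells, was the highest, at 0.106 per 10000 in Wistar and 0.0783 in SHR. Its usual partner Itgb7 was at 0 in both libraries. Itgb2, the common beta subunit of leukocytes, was at 0.00771 in Wistar and 0.000764 in SHR, and Itgal, its partner on lymphocytes, at 0.00170 and 0. Itgad and Itgax were at 0 in both. Summed over the 9 immune markers, the level was 1.41 per 10000 in Wistar and 0.452 in SHR. Of these markers, 8 of 9 were lower in SHR and none was at 0, beside 68.1% lower among all genes above 0 in either library. Whether the Itgae counts came from immune cells was not tested.

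The matrix genes showed larger differences between the libraries than the receptors. Of the 5 that averaged at least 0.1 per 10000, 4 were lower in SHR by at least 1.5-fold and 0 were higher, against the 26.5% and 5.22% of all genes at that level. Their median log2 ratio was -2.18, beside -0.21 for all genes at that level. These are few genes, and Col1a1 and Col4a1 passed 0.1 only through their Wistar level, so the count describes these libraries and supports nothing further. The means over cells do not show whether fewer cells held the transcript or each cell held less of it.

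Fibrillar collagens accounted for most of the difference, with a summed level of 2.46 per 10000 in Wistar and 0.481 in SHR, 5.10-fold lower. Col3a1, the chain of collagen III, was at 0.814 in Wistar and 0.152 in SHR, 5.36-fold lower. Col1a1, the main chain of collagen I, was at 0.542 in Wistar and 0.0644 in SHR, 8.41-fold lower. Both are abundant products of fibroblasts.

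Col5a3, a chain of collagen V that peripheral glia are known to make, was at 0.808 in Wistar and 0.240 in SHR, 3.37-fold lower. It was far above the other collagen V chains, Col5a1 at 0.0230 and 0.00370 and Col5a2 at 0.0393 and 0.00445. Col11a1 and Col11a2, the chains of collagen XI, were at 0.131 and 0.0937 in Wistar and at 0.00555 and 0.0108 in SHR. In the SHR library those 2 levels rest on at most 14 and 27 counts. Of the 11 fibrillar collagen genes, 9 were lower in SHR and 2, Col24a1 and Col27a1, were at 0 in both libraries.

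Type IV collagen split by gene pair. Col4a1, a chain of the ubiquitous basement membrane network, was at 0.250 per 10000 in Wistar and 0.0553 in SHR, 4.52-fold lower. Its head-to-head partner Col4a2 was at 0.0141 in Wistar and 0.00311 in SHR, 4.53-fold lower, so that the ratio of Col4a1 to Col4a2 was 17.8 in both libraries. The SHR level of Col4a2 rests on at most 7 counts.

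The other pair, which encodes chains of the network known from kidney glomerulus and lung, did not share this difference. Col4a4 was at 0.741 in Wistar and 0.732 in SHR, a log2 ratio of -0.02, and was the most abundant matrix gene in the SHR library. With a total that excludes ribosomal protein and mitochondrial genes the log2 ratio of Col4a4 was 0.02, and it was 0.19 relative to the median of all genes. Its partner Col4a3 was at 0.0591 in Wistar and 0.0852 in SHR, 1.44-fold higher. The ratio of Col4a4 to Col4a3 was 12.5 in Wistar and 8.59 in SHR. Col4a5, the chain that usually joins them, encoded on the X chromosome, was at 0 in both libraries, as was Col4a6. Without Col4a4, the summed level of the matrix genes was 3.90 in Wistar and 1.09 in SHR, 3.57-fold lower.

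The laminins were all under 0.1 per 10000 on average, with a summed level of 0.454 in Wistar and 0.264 in SHR, 1.72-fold lower. Lama5, the alpha chain of laminin-511, a ligand of α3β1 and α6β1, was the highest on average and the 1 of 10 laminin genes with a higher mean in SHR, at 0.0761 in Wistar and 0.0918 in SHR. The remaining 9 were lower. Lamc1, the gamma chain of most laminins, was at 0.107 in Wistar and 0.0502 in SHR. Lama2, the alpha chain of Schwann cell and muscle basement membranes, was at 0.0724 and 0.0425. Lamb1 was at 0.0744 and 0.0300, and Lamb2 at 0.0698 and 0.0173. Lama4, a chain of vascular laminins, was at 0.0257 in Wistar and 0.00879 in SHR.

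Fibronectin and the nidogens were lower in SHR. Fn1 was at 0.0488 per 10000 in Wistar and 0.000924 in SHR, where it rests on at most 2 counts. Nid1 was at 0.0265 and 0.00782, and Nid2 at 0.0283 and 0.00340. The summed level of these 3 genes was 0.104 in Wistar and 0.0121 in SHR.

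Collagens of the remaining families were low and mostly lower in SHR. Col28a1, a collagen known from nonmyelinating glia of the peripheral nervous system, was the highest, at 0.112 per 10000 in Wistar and 0.0650 in SHR. Col16a1 was at 0.105 and 0.0310. The multiplexins Col15a1 and Col18a1, the latter the source of endostatin, were at 0.0704 and 0.0682 in Wistar and at 0.0219 and 0.00898 in SHR. Col12a1, a collagen that coats fibrils in tendon and other connective tissue, went the other way, at 0.00777 in Wistar and 0.0150 in SHR. Col25a1, a transmembrane collagen of neurons, was at 0.00795 and 0.00172. Col9a2 was at 0.0354 in Wistar and 0.000970 in SHR, where it rests on at most 2 counts.

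Of the 29 members that averaged between 0.01 and 0.1 per 10000, 22 were lower in SHR by at least 1.5-fold and 1, Col12a1, was higher. Over all 3983 genes in this range, 49.0% were lower and 10.3% were higher by that size. Of the 24 matrix genes among these members, 19 were lower by that size, and of the 4 receptors 3 were. Over all levels, 57 of the 68 members above 0 in either library had a lower mean in SHR, and 68.1% of all 16389 such genes did. Of the 12 members listed at 0 in only 1 library, 9 were at 0 in SHR, the library in which 1 count weighed more. The same imbalance held over all genes, with 16004 above 0 in Wistar and 14647 in SHR, so this count is not particular to the members.

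**Figure D2:**
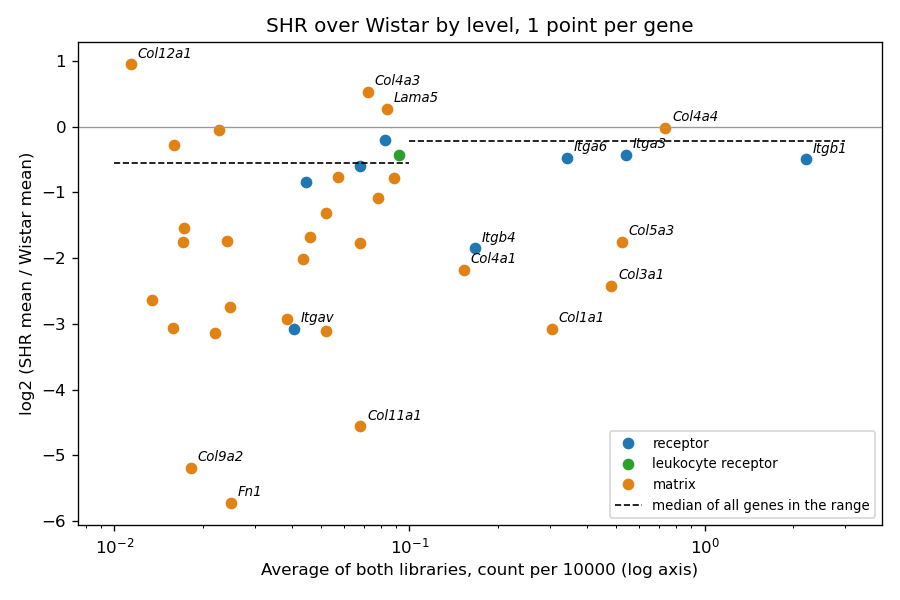
The log2 of the SHR mean over the Wistar mean plotted against the average level on a log axis, for the 38 members that averaged at least 0.01 per 10000, colored by kind, with dashed lines at the median of all genes in each of the 2 level ranges (-0.56 from 0.01 to 0.1 and -0.21 above 0.1). Itgb1, Itga3 and Itga6 lie below the dashed line of their range, at -0.50, -0.42 and -0.47, and Col4a4 lies above it, at -0.02. Col1a1, Col3a1, Col5a3, Col4a1 and Itgb4 lie between -1.75 and -3.07. The lowest points, Fn1 and Col9a2, rest on at most 2 SHR counts each.

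Of 39 markers of other cell types, 34 had a lower mean in SHR, beside 68.1% of all genes above 0 in either library. The sum of the 9 glial markers was 2.95-fold lower in SHR, and all 9 were lower, with S100b at 0.424 per 10000 in Wistar and 0.0744 in SHR, Cdh19 at 0.189 and 0.0535, and Kcnj10 at 0.000598 and 0. Of the 7 fibroblast markers, 6 were lower in SHR and none was at 0. Dcn was at 0.387 and 0.0964 and Apod at 0.530 and 0.130, 4.01-fold and 4.07-fold lower. Lum was at 0.0717 and 0.0388, 1.85-fold lower. Igfbp6 went the other way, at 0.0440 in Wistar and 0.0959 in SHR, 2.18-fold higher.

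The fibroblast sum was 2.88 in Wistar and 1.86 in SHR, most of it from Gsn, which neurons also express. Without Gsn it was 1.18 and 0.410, 2.88-fold lower. The 7 endothelial markers summed to 0.240 and 0.0655, with 6 lower and none at 0. The 7 smooth muscle markers summed to 0.128 and 0.0725, with 5 lower, among them Rgs5 at 0 in SHR. Acta2 and Tagln were slightly higher in SHR, and the smooth muscle count was near the 68.1% of all genes. The folds of Col1a1 and Col3a1 were larger than those of Dcn, Apod, Mgp, Lum and Gsn and smaller than that of Pdgfra. Pdgfra was at 0.0178 per 10000 in Wistar and 0.000864 in SHR, 20.6-fold lower. The fold of Col5a3 lay within the range of the glial markers lower in SHR and within that of the fibroblast markers lower in SHR. The sum of the neuronal markers was 1.14-fold higher in SHR. How much of the matrix difference came from transcripts of other cells in the neuron cluster was not tested.

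**Figure D3:**
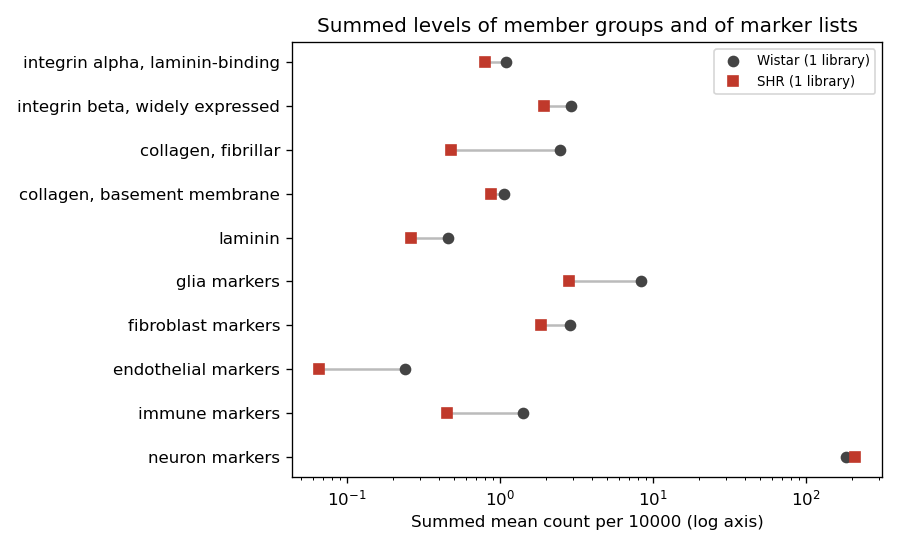
Summed mean counts per 10000 of 5 groups of members and 5 lists of cell type markers on a log axis, with circles for Wistar and squares for SHR. Fibrillar collagens and the glial, endothelial and immune markers were 2.95-fold to 5.10-fold lower in SHR, while the laminin-binding alpha subunits were 1.37-fold lower and the neuronal markers 1.14-fold higher.

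The intracellular partners of integrins summed to 23.9 per 10000 in Wistar and 21.0 in SHR, with Parva the largest contributor. Of 23 adaptor and signaling genes with values, 15 averaged at least 0.1 per 10000, and of these 2 were lower in SHR by at least 1.5-fold and 0 were higher, beside 26.5% and 5.22% of all genes at this level. Their median log2 ratio was -0.14. Actn1, the actin cross-linker α-actinin-1, was at 2.90 in Wistar and 1.54 in SHR, 1.88-fold lower. Src, the kinase that acts with focal adhesion kinase, was at 0.296 and 0.143, 2.06-fold lower. Parva, which links integrin-linked kinase to actin, was the highest of the list, at 9.18 and 9.36, and talin 2 (Tln2), which activates integrins from inside the cell, was at 1.45 and 1.09.

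Receptors of the matrix other than integrins differed in both directions. Of the 10 that averaged at least 0.1 per 10000, 3 were lower and 2 higher in SHR by at least 1.5-fold, beside 26.5% and 5.22% of all genes at this level, with a median log2 ratio of -0.19. Sdc2, a transmembrane heparan sulfate proteoglycan, was at 0.0804 in Wistar and 0.375 in SHR, 4.66-fold higher, and passed 0.1 only through SHR. Its relative Sdc1 was at 0.209 and 0.0739, 2.83-fold lower and past 0.1 only through Wistar, and the glypican Gpc1 at 0.607 and 0.220, 2.76-fold lower. The collagen receptor Ddr1 was at 0.993 and 0.659, 1.51-fold lower. Rpsa, which encodes both a ribosomal protein and a laminin receptor precursor, was at 5.48 and 8.54, 1.56-fold higher, a value that is uncertain because many processed copies of this gene exist. Bcam, an immunoglobulin-family receptor for Lama5-containing laminins, was at 3.39 in Wistar and 3.76 in SHR, above Itgb1 in both libraries.

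The enzymes that fold and modify collagen chains were lower in SHR by at least 1.5-fold in 5 of the 9 genes that averaged at least 0.1 per 10000, with 0 higher by that size and a median log2 ratio of -0.70. Over all genes at this level 26.5% were lower and 5.22% higher by that size, or 17.3% and 13.2% with the median of all genes set to 0. Serpinh1 and P3h1, a prolyl 3-hydroxylase at 0.138 in Wistar and 0.0789 in SHR, passed 0.1 only through the Wistar library. Serpinh1, the collagen chaperone HSP47, was at 0.247 per 10000 in Wistar and 0.0543 in SHR, 4.54-fold lower, close to the 4.52-fold of Col4a1. Plod1, a lysyl hydroxylase, was at 0.277 and 0.142, 1.95-fold lower. P4hb, a subunit of prolyl hydroxylase that also serves as a general protein disulfide isomerase, was at 0.751 and 0.640.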

How the data were processed

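Stellate ganglia were dissociated with collagenase and trypsin, which digest matrix and some surface proteins but were not compared with another preparation, and single cells were sequenced with 10x Genomics 3′ v3 chemistry. The submitters' processing notes name Cell Ranger 3.0.2, Seurat 3 and the rat build Rnor_6.0. For each library the authors deposited 1 column on a natural log scale, the ln of 1 added to a gene's average per 10000 over the neuron cluster. Values were converted back with the exponential minus 1, and each library then summed to 10000. Tags outside an annotated 3′ end are not counted, which lowers genes with short models. The depth per neuron, the number of neurons and the treatment of doublets are not given in the sources used here, so no interval is stated.

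The ratio of the SHR to the Wistar mean was taken without a pseudocount for genes that averaged at least 0.1 per 10000, and a 1.5-fold difference stood in for a call. No test was run, since there is 1 library per strain. The 4 lines whose name occurs more than once were dropped. A deposited table of the authors' own comparison (fold changes, p-values and 2 columns of shares of cells whose names match no sample) was not used. Every member past 0.1 per 10000 was named, and others as the highest of their role group or as examples chosen after their values were seen. The 2 largest falls and rises past 1.5-fold were named in each pathway list, and further genes there were also chosen after their values were seen. The members and lists were chosen with earlier results of these data known. Protein sequences planned for printing were not used here, and some genes are not reported here. Promoters were read from RefSeq (GRCr8). The calculations used Python 3.11.15, NumPy 2.4.6 and pandas 2.3.3, and the counting of calls was tested on simulated data. Alternatives were pseudocounts, minimums, a larger fold and other scalings.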

Additional observations from a re-analysis of the deposited data

How the results depend on the processing

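No paired analysis was possible because there was only 1 library of each strain. The direction of the medians held under every alternative run, and their size did not. A change under 0.1 in log2 was taken as no change. The median log2 ratio of the matrix genes, -2.18, was -1.42 and -0.53 with pseudocounts of 0.1 and 1. It was -1.53, -0.89 and -1.76 with minimums of 0.05, 0.5 and none, and -1.96 after centring on the median of all genes. With a total that excludes ribosomal protein and mitochondrial genes it was -1.71, where 7 rather than 5 matrix genes passed the minimum. The ratios of the 9 members past the main minimum changed by under 0.1 there. The median of the receptors, -0.48, was -0.19 with a pseudocount of 1 and -0.27 with the median of all genes set to 0. Between 0.01 and 0.1 per 10000, a range chosen after the data were examined, the medians were -1.75 for matrix genes and -0.72 for receptors.

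The number of matrix genes lower in SHR by 1.5-fold, 4 of 5, was 1 of 5 with a pseudocount of 1. It was 11 of 14 with a minimum of 0.05, 1 of 2 with a minimum of 0.5 and 32 of 41 with none. Between 0.01 and 0.1 it was 19 of 24, and with ribosomal protein and mitochondrial genes out of the total 5 of 7. The number higher, 0, was 1 of 41 with no minimum and 1 of 24 between 0.01 and 0.1. The number of receptors lower, 1 of 4, was 0 of 4 with a pseudocount of 1 and 2 of 6 with a minimum of 0.05. It was 0 of 2 with a minimum of 0.5, 6 of 13 with none and 3 of 4 between 0.01 and 0.1. The number of receptors higher, 0, was 3 of 13 with no minimum. The counts follow from how many genes each minimum admits and from how much each pseudocount shrinks low levels. With a pseudocount of 1, 1.26% of all genes past the minimum were lower by 1.5-fold. The share lower was 29.3% with a minimum of 0.05, 15.9% with a minimum of 0.5 and 35.8% with none, where 11.6% were higher. Between 0.01 and 0.1, 49.0% were lower and 10.3% higher. With ribosomal protein and mitochondrial genes out of the total, 25.1% were lower. With the median of all genes set to 0, 17.3% were lower and 13.2% higher. With ribosomal protein and mitochondrial genes out of the total, or after the centring, 8 of the 9 members past the minimum were lower in SHR, and 9 under the other settings. Col4a4 was the member that changed sign. Depth per neuron is unknown, so the reliability of the low levels cannot be stated.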

Other observations

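Partner chains of collagen I differed widely in level. Collagen I is a trimer of Col1a1 and Col1a2 chains that fibroblasts transcribe together, and Col1a1 exceeded Col1a2 by 124.2-fold in Wistar, at 0.542 against 0.00436 per 10000. In SHR Col1a1 was at 0.0644 and Col1a2 at 0.000851, which rests on at most 2 counts. The ratio of Col6a2 to Col6a1 was 2.91 in Wistar, and in SHR their levels were 0.0111 and 0.00146. The ratio of Lamc1 to Lamb1 was 1.43 in Wistar and 1.67 in SHR, and that of Col11a1 to Col11a2 was 1.40 and 0.512. The SHR level of Col6a1 rests on at most 3 counts. The cause of the gap was not tested.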
